A study of Mus musculus with 4 samples.

Results

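The variable (V) and joining (J) gene segments of the T-cell receptor alpha chain, named Trav and Traj, were followed in RNA of primary mouse T cells. The members were all rows of the gene tables whose identifier carries a Trav or Traj symbol, 188 of 50600 genes, made up of 128 V and 60 J segments. This rule used no measured value, though the members and lists were chosen with earlier results of these data known. The series holds 4 libraries of 1 group, T cells of C57BL/6NJ mice labelled as biological replicates 1 to 4, with no second condition to set them against. The titles call the assay total RNA sequencing, whereas the linked library protocol concerns polyadenylated RNA. A linked protocol for differentiating CD4+ T cells is listed, no culture condition is given in the labels, and the alignment names in the file headers carry words for activated cells of the Th0 type at 24 h, which were used for no grouping. The donor field is the same for all 4 and names only the strain, so whether the libraries came from different animals is not known, and every spread and p-value given here measures only these samples, whose differences may be technical in part. Age and sex are not known from the labels.

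During T-cell development in the thymus, the RAG recombinase joins 1 V segment to 1 J segment on each alpha chain locus, and the joined exon is spliced to the constant region exons of Trac. The locus can be rearranged repeatedly, each time joining a V segment further upstream to a J segment further downstream. The delta chain genes lie inside the alpha locus, most of them between the V and the J segments and some among the last V segments. Some V segments (those with dv in their names) can serve both chains. After joining, the primary transcript runs from the chosen V segment through the remaining J segments to Trac, so a fragment counted in a J row need not come from the segment that was joined. Fragments overlapping more than 1 gene were not counted, per the options in the file headers, so a fragment running from a V into a J segment or from a J segment into Trac was assigned to none of them.

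The counts summed to 60102919, 273136467, 48608896 and 47558517 fragments in replicates 1, 2, 3 and 4. The label was checked against marker genes: all 8 genes of the alpha-beta T-cell list reached 1 TPM (a level scaled here to library depth and to the length of each gene's exons) in every library, with Cd4, the coreceptor of helper T cells, at 697 ± 37.9 TPM (SD, n = 4) and Cd8a at 0.839 ± 0.0254 TPM. Summed levels were 2.08 to 5.10 TPM for 4 B-cell markers, 0.267 to 1.16 TPM for 4 myeloid markers and 0 to 0.172 TPM for 3 natural killer markers, of which Csf1r among the myeloid and Klrb1c among the natural killer markers had no fragment. In a list of 6 gamma-delta T-cell genes, Tcrg-C1 and Tcrg-C4 had no fragment and the sum was 2.29 to 3.64 TPM, most of it from Sox13. Among 5 thymocyte genes the sum was 2.48 to 3.30 TPM, most of it from Cd1d1. Cd8b1, the other chain of the Cd8 coreceptor, stood at 46.7 ± 3.55 TPM. The part of other cells in the values of the segments was not tested, and in bulk samples fewer cells of a type and less RNA per cell cannot be told apart.

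V segments took 4666, 22307, 4098 and 3894 fragments in replicates 1 to 4, and J segments took 358, 1460, 302 and 318. Together they made up 0.00874 ± 0.000293% of all fragments (SD, n = 4). Summed over all segments, the V level was 682, 728, 753 and 720 TPM and the J level 377, 329, 405 and 402 TPM, beside 1631, 1581, 1766 and 1726 TPM of Trac. The V sum thus came to 43.1 ± 2.05% and the J sum to 22.5 ± 1.17% of the Trac level. V exceeded J in all 4 libraries, by 0.93 ± 0.14 on the log2 scale of summed TPM + 1 and by 3.75 on the log2 scale of fragments. In the exact two-sided sign-flip test over 4 libraries, 2 of 16 sign patterns gave a difference at least as large (p = 0.13). This is the smallest p that 4 libraries can give, it cannot pass 0.05, and it stayed 0.13 after Benjamini-Hochberg adjustment over the 3 comparisons made within libraries. J rows are 29 to 72 bases long, and how a fragment longer than its row changes the level per length was not tested, since the files give no fragment lengths. V rows are 155 to 595 bases long.

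A segment was called detected where it had at least 3 fragments in each of the 4 libraries. Of the 128 V segments, 61 were detected, 50 had no fragment in any library and 17 lay between. Of the 60 J segments, 19 were detected, 4 had no fragment in any library and 37 lay between. A count of 0 allows a share of up to 0.0134 to 0.0770% of V fragments, depending on the library, and of up to 0.205 to 0.993% of J fragments. These limits cover counting error only, since fragments without molecular identifiers are not independent molecules.

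All 188 segments lie on the plus strand of chromosome 14 of the mm10 build, the V segments between 52427928 and 53977678 and the J segments between 54155005 and 54218842. In C57BL/6 mice a stretch of the V locus is present in several copies, and the copied segments carry d or n in their names. Fragments that align to several places were not counted, so fragments lying within sequence that copies share were left out. The Trav14 family, the most abundant, shows the difference between near-identical and identical copies. The last 90 coding bases of 6 members are printed from the GENCODE vM21 transcripts, with capitals in Trav14-3 and Trav14d-3-dv8 marking bases that differ from Trav14n-3, and capitals in Trav14-1 marking bases that differ from Trav14n-1.
Trav14n-3, plus strand, chr14:53370486-53370575: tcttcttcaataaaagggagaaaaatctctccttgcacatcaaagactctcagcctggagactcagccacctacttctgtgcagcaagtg
Trav14-3, plus strand, chr14:53763605-53763694: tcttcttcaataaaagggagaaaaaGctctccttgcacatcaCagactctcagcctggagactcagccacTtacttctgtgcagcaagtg
Trav14d-3-dv8, plus strand, chr14:53078956-53079045: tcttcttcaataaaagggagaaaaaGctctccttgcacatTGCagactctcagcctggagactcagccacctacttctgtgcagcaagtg
Trav14n-1, plus strand, chr14:53167089-53167178: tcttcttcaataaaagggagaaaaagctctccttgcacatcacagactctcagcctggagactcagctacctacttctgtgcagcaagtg
Trav14d-1, plus strand, chr14:52856077-52856166: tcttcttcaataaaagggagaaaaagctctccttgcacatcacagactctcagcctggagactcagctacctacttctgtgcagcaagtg
Trav14-1, plus strand, chr14:53554469-53554558: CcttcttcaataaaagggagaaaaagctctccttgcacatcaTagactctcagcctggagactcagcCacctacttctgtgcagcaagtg

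Over the whole coding stretch, Trav14-3 differed from Trav14n-3 at 10 of 361 bases and Trav14d-3-dv8 differed at 12 of 361. These 3 segments were among the 10 most abundant V segments. Trav14n-1 and Trav14d-1 did not differ at any of 364 coding bases, and both had 0 fragments in all 4 libraries. Trav14-1, which differed from Trav14n-1 at 16 of 364 coding bases, had 130, 584, 71 and 74 fragments. The Trav14-1, Trav14n-1 and Trav14d-1 segments were chosen after their values were seen, to show this contrast.

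The same contrast ran through all V segments. The exonic sequence of each was divided into all windows of 50 bases. A window was called unique where it occurred in the exons of no other alpha or delta V segment and of no Traj segment. Introns and the rest of the genome were not searched, so a unique window could still align to several places. Of the 39 V segments with no unique window, 37 had no fragment in any library and 0 were detected, and 36 of the 39 were d or n copies. The exceptions were Trav6d-6 and Trav11, with 6 and 2 fragments over all libraries (Trav6d-6 was named after its values were seen). Of the 89 V segments with at least 1 unique window, 13 had no fragment and 61 were detected. The counts with windows of 36, 75 and 100 bases, lengths added after seeing the data, were 38 of 40, 37 of 39 and 37 of 38 V segments without a unique window and without a fragment. Counts of V segments with few unique windows are lower limits of their RNA, and a count of 0 in a segment with no unique window does not measure its use.

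**Figure D1:**
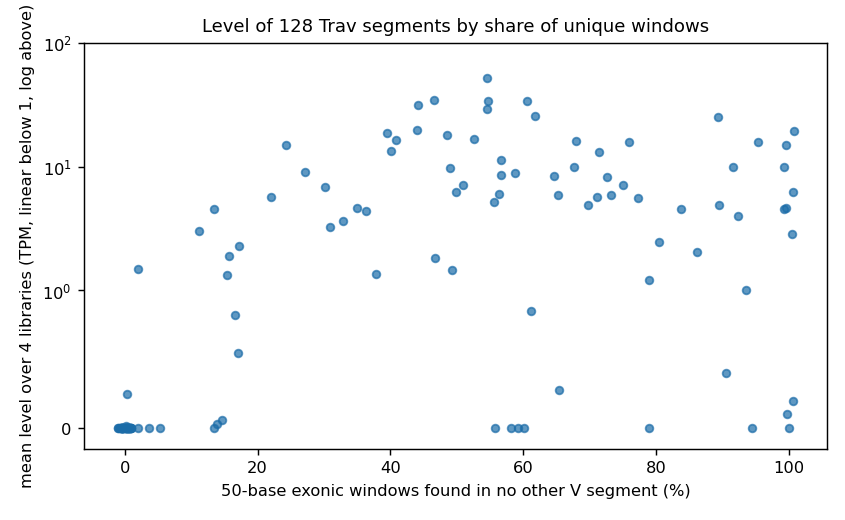
Mean level over the 4 libraries (TPM, linear below 1 and logarithmic above) of the 128 V segments, plotted against the percentage of their 50-base exonic windows called unique. Each point is 1 segment, shifted slightly sideways so that overlapping points can be seen, and 37 of the 39 segments without a unique window lie at 0.

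Among the V segments with at least 1 unique window, the annotation class also differed. Of 73 annotated as genes, 5 had no fragment and 59 were detected, while of 16 annotated as pseudogenes, 8 had no fragment and 2 were detected. Pseudogenes together took 1.5 ± 0.246% of V fragments. Trav8-2, annotated as a pseudogene and named after its values were seen, accounted for most of this, with 48, 243, 27 and 50 fragments and 8.35 ± 2.07 TPM.

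The 128 V segments fall into 23 families by the number in their names. The Trav14 family had the highest share of V fragments, 18.8, 22.4, 22.3 and 22.9% in replicates 1 to 4, a mean of 21.6 ± 1.92%. Its replicate 1 value was the lowest of the 4, and every library placed this family above all others. Of its 9 members 5 were detected and 4 had no fragment. Trav7 followed with 10.9 ± 1.34%, Trav9 with 9.77 ± 1.41% and Trav6 with 9.15 ± 0.876%, a group whose neighbours in this order did not differ beyond their spread. Trav4 averaged 7.53 ± 2.05% and was the least even of the leading families, with 8.27, 7.57, 4.71 and 9.55% in replicates 1 to 4. Trav13, Trav3, Trav12 and Trav8 averaged 7.31, 6.30, 5.98 and 5.60%. The 9 leading families took 84.2% of V fragments between them. The other families lay at 2.71% or less, down to Trav20 at 0.0242%, Trav23 at 0.0128% and Trav22 with no fragment. A family share is a sum over unequal numbers of members, and fragments within sequence that copies share were not counted in it.

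**Figure D2:**
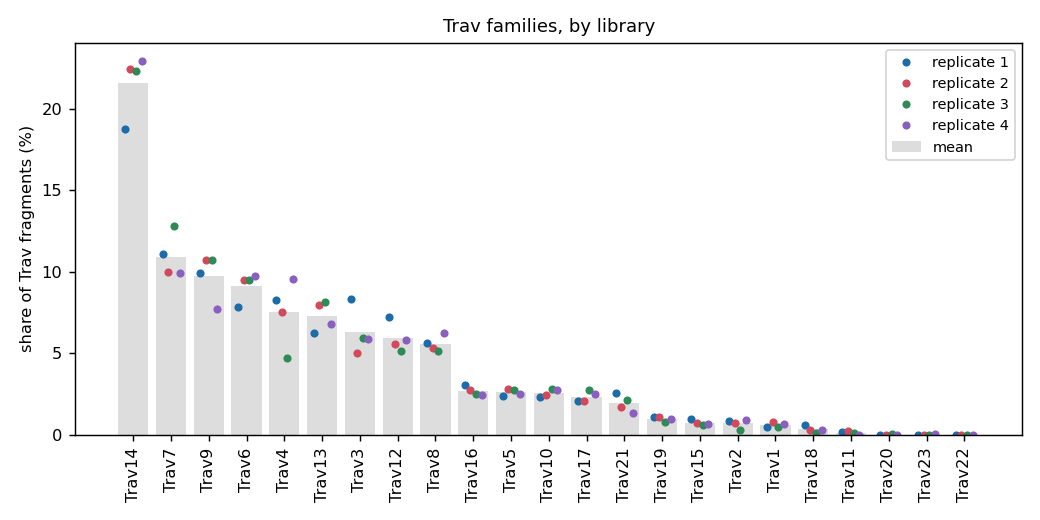
Share of V fragments (%) held by each of the 23 V families, with 1 point per library and bars for the mean of 4 libraries. The Trav14 family, at 21.6%, lies above all others in every library, and the next 8 families lie between 5.60 and 10.9%.

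Fragments were spread over many V segments. The effective number of V segments, which is the inverse of the summed squared shares and would equal the number of segments if all were even, was 33.7, 38.0, 33.3 and 34.8 (mean 35.0 ± 2.11 over the 4 libraries). The 10 segments of highest mean share held 42.1 ± 1.15% of V fragments. Trav14n-3 had the highest mean share, with 297, 1321, 353 and 237 fragments, or 46.4, 46.2, 69.2 and 46.8 TPM in replicates 1 to 4, and a share of 6.75 ± 1.26%. Its level was higher in replicate 3 than in the others, which lay within 1 TPM of each other. Trav3-3 had 298, 865, 209 and 192 fragments and a share of 5.07 ± 1.03%, with its highest share in replicate 1. Trav4-4-dv10, which can serve the delta chain as well, had 258, 1018, 118 and 193 fragments and a share of 4.48 ± 1.14%, lowest in replicate 3. Trav14-3 had 26.6, 32.6, 33.2 and 33.4 TPM, lowest in replicate 1, and a share of 4.33 ± 0.319%. Trav14d-3-dv8 had 126, 966, 149 and 239 fragments, and its share of 4.20 ± 1.45% was lowest in replicate 1 and highest in replicate 4.

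The remaining 5 of the 10 were Trav14-2, Trav13-1, Trav9-2, Trav7-5 and Trav9-4, with mean shares of 4.06 ± 0.864, 4.03 ± 0.397, 3.35 ± 1.12, 3.03 ± 0.733 and 2.80 ± 0.781%. Trav14n-3 had the highest share in replicates 2 and 3, while Trav3-3 was above it in replicate 1 (6.39 against 6.37%) and Trav14d-3-dv8 in replicate 4 (6.14 against 6.09%). Among the other 9, neighbours in the order differed by less than the larger of their SDs between libraries. The order of the 10 is not fixed by these data. Per length, Trav14n-3 averaged 52.2 ± 11.4 TPM, Trav4-4-dv10 34.3 ± 7.68 TPM, Trav13-1 33.8 ± 2.60 TPM, Trav3-3 33.5 ± 5.84 TPM and Trav9-2, whose row is longer, 16.6 ± 5.95 TPM.

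The 10 V segments that can serve both chains held 14.5, 16.1, 13.3 and 16.7% of V fragments in replicates 1 to 4, a mean of 15.2 ± 1.55%. Trav4-4-dv10 and Trav14d-3-dv8 made up much of this. Of the rest, Trav6-7-dv9 had 100, 653, 84 and 101 fragments, Trav21-dv12 had 120, 388, 88 and 53, Trav13-4-dv7 had 31, 344, 68 and 41, and Trav15-1-dv6-1 had 32, 140, 22 and 17. These 6 were the detected members of the set. Trav16d-dv11 and Trav15-2-dv6-2 fell under the detection floor in at least 1 library, and the d copies Trav15d-1-dv6d-1 and Trav15d-2-dv6d-2 had no fragment. Trav13-4-dv7 was lowest for its depth in replicate 1, at 4.54 TPM against 7.59 to 12.5 TPM in the other libraries. The members of this set outside the leading 10 were named after their values were seen.

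Families with 1 member have no copy of their own to share fragments with. There were 9 of them, of which 6 were detected and 1 had no fragment. Trav17, with 97, 464, 113 and 97 fragments, was the highest at 2.35 ± 0.333% of V fragments and 19.2 ± 3.33 TPM (named after its values were seen). Its level was lowest in replicate 1, at 16.0 TPM, and highest in replicate 3, at 23.5 TPM. All of its windows were unique.

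**Figure D3:**
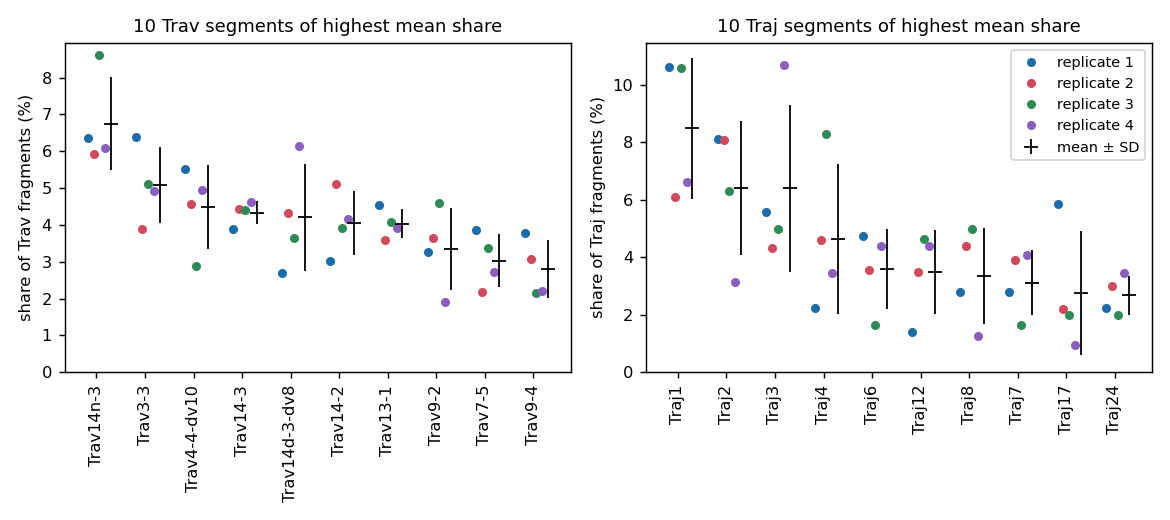
Share of V fragments (left, %) and of J fragments (right, %) for the 10 V and the 10 J segments of highest mean share, with 1 point per library and the mean ± SD of 4 libraries beside them. Trav14n-3 and Traj1 have the highest means, and the bars of neighbouring segments overlap.

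The V locus was divided in its own order. The 8 segments from Trav1 to Trav6-2, farthest from the J segments, held 5.69 ± 0.494% of V fragments. The 39 segments of the d block (Trav7d-2 to Trav15d-3) held 9.95 ± 2.31%, and 23 of them had no fragment. The 34 segments of the n block (Trav7n-4 to Trav15n-3) held 13.5 ± 1.43%, and 21 had no fragment. The 47 segments from Trav7-2 to Trav23, nearest the J segments, held 70.9 ± 3.12%, with 35 detected and 5 without a fragment. Trav1, the first V segment by position, had 22, 176, 21 and 26 fragments (0.610 ± 0.146% of V fragments), and Trav23, the last, had 0, 0, 0 and 2.

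The 64 V segments nearest the J segments held 80.9 ± 2.63% of V fragments, and the 64 farthest held 19.1 ± 2.63%. The mean of log2(TPM + 1) was 2.28 ± 0.03 for the near set and 0.96 ± 0.10 for the far set, a difference of 1.32 ± 0.08 in the same direction in 4 of 4 libraries (exact two-sided sign-flip p = 0.13, the smallest possible with 4 libraries, adjusted 0.13). The difference was 0.36 without the d and n copies and 0.27 among segments with 50% or more of their windows unique, a restriction added after seeing the data. It was 2.20 with a pseudocount of 0.1 TPM in place of 1. The near and far sets were not redrawn for these alternatives. The value without copies therefore sets the 47 segments from Trav7-2 to Trav23 against only the 8 from Trav1 to Trav6-2.

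**Figure D4:**
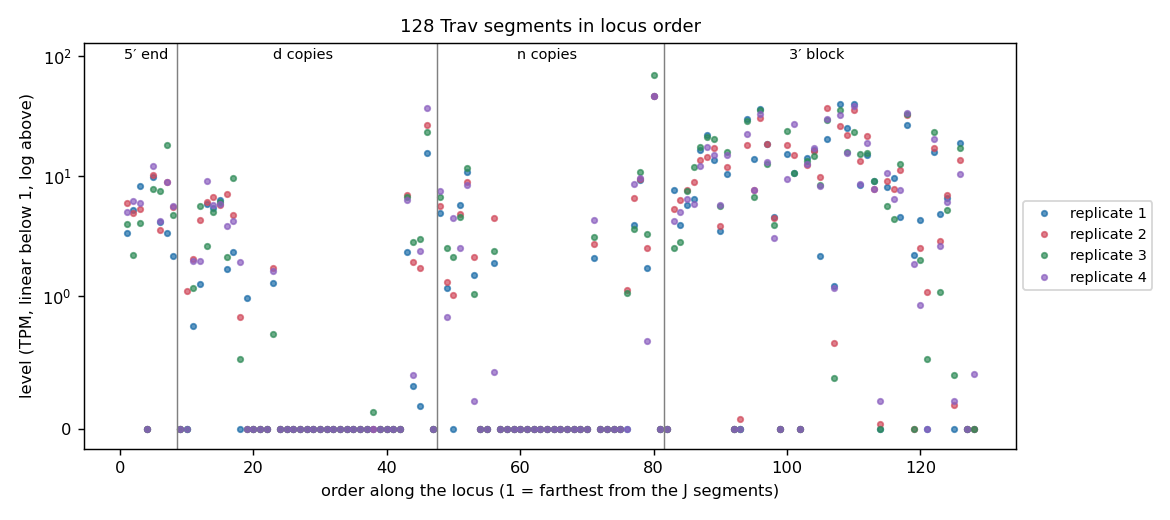
Level (TPM, linear below 1 and logarithmic above) of each of the 128 V segments in each of the 4 libraries, in their order along the locus, with vertical lines between the 4 blocks. Runs of segments at 0 fill much of the d and n blocks, and the block nearest the J segments holds 70.9% of V fragments.

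Each J segment carries a short coding stretch followed by a splice site to Trac, and most J regions are known for a Phe-Gly-X-Gly motif in the protein. The search was for the codons TTN, GGN, NNN and the bases GG as 1 run of 11 bases, on both strands of the 60 J rows, where N is any base. TTN takes the codons of Leu as well as of Phe, and the reading frame was not checked. The run occurred on the plus strand in 46 of 60 J rows (76.7%), in 44 of 51 genes (86.3%) and in 2 of 9 pseudogenes (22.2%), and on the minus strand in 0. A run starting with a Phe codon, TTC or TTT, was present in 43 of 60 rows, 42 of 51 genes and 1 of 9 pseudogenes. The J segments printed from the GENCODE vM21 transcripts are the 4 of highest mean share, the 2 used by invariant receptors and Traj53, annotated as a gene with no fragment. Capitals mark the run of 11 bases where it was found.
Traj1, plus strand, chr14:54218814-54218842: gtgtgcagatagctgctccatctttcctg
Traj2, plus strand, chr14:54217836-54217901: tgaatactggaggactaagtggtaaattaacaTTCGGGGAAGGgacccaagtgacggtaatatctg
Traj3, plus strand, chr14:54217292-54217357: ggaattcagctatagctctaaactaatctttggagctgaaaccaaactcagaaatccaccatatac
Traj4, plus strand, chr14:54216291-54216353: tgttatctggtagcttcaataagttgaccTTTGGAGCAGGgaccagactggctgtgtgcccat
Traj18, plus strand, chr14:54200777-54200842: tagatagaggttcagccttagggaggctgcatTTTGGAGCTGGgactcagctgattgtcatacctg
Traj33, plus strand, chr14:54185358-54185414: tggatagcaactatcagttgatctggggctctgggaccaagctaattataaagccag
Traj53, plus strand, chr14:54162644-54162709: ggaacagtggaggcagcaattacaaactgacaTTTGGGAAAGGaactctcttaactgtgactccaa

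Fragments were more numerous in J rows nearer Trac. In the order of the locus, the 15 segments from Traj61 to Traj47 held 9.33 ± 1.89% of J fragments, those from Traj46 to Traj32 held 13.3 ± 3.19%, those from Traj31 to Traj17 held 26.2 ± 1.93% and those from Traj16 to Traj1 held 51.2 ± 1.44%. Detected segments numbered 0, 3, 6 and 10 in these 4 sets. The 30 J segments nearest Trac held 77.4 ± 2.39% and the 30 farthest 22.6 ± 2.39%. The mean of log2(TPM + 1) was 2.90 ± 0.05 for the near set and 1.26 ± 0.18 for the far set, a difference of 1.64 ± 0.18 in the same direction in 4 of 4 libraries (exact two-sided sign-flip p = 0.13, again the smallest possible, adjusted 0.13). The difference was 0.98 among detected segments only and 2.80 with a pseudocount of 0.1 TPM. Detection was set by the same counts, and it left only 3 segments in the far set, all between Traj46 and Traj32. Across the 60 segments, position along the locus and mean TPM had a Spearman correlation of 0.724 as a description, and of 0.522 to 0.736 within each library. The segments share libraries and rest on few fragments each.

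**Figure D5:**
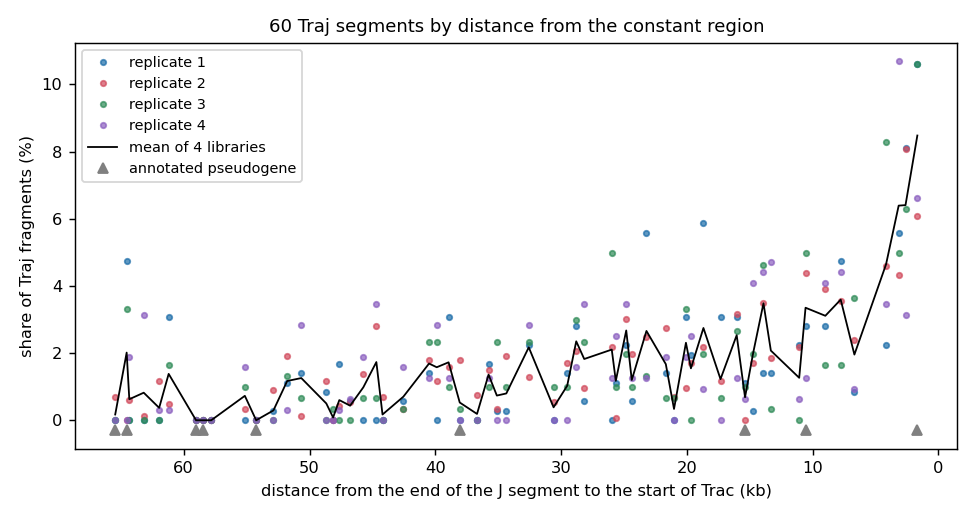
Share of J fragments (%) of each of the 60 J segments in each of the 4 libraries, against the distance from the end of the segment to the start of Trac (kb). The line joins the means of 4 libraries and triangles mark annotated pseudogenes. The 4 segments nearest Trac have the 4 highest means.

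The segments of highest share were those nearest Trac. Traj1, annotated as a pseudogene of 29 bases and the last J segment before Trac, had 38, 89, 32 and 21 fragments, a share of 8.48 ± 2.47%. Traj2 had 29, 118, 19 and 10 fragments, a share of 6.40 ± 2.33%, lowest in replicate 4. Traj3 had 20, 63, 15 and 34 fragments, a share of 6.39 ± 2.91%, highest in replicate 4. Each of these leading segments changed rank between libraries. Traj4 averaged 4.64 ± 2.61%, and Traj6, Traj12, Traj8, Traj7, Traj17 and Traj24 averaged between 2.67 and 3.59%. The 10 leading J segments held 44.9 ± 2.18% of J fragments, and the effective number of J segments was 22.8, 31.6, 23.3 and 25.4, highest in the deepest library. Traj1 and Traj8 were the 2 detected pseudogenes of 9, and pseudogenes together took 15.2 ± 5.53% of J fragments. The 4 segments without a fragment were Traj55, Traj54, Traj53 and Traj51. Traj61, the first J segment by position, had 0, 10, 0 and 0 fragments.

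Invariant T-cell receptors use fixed pairs of segments. Natural killer T cells join Trav11 to Traj18, and mucosal-associated invariant T cells join Trav1 to Traj33. Trav11 had 0, 2, 0 and 0 fragments and its copy Trav11d had 0 in all libraries. They did not differ at any of the 342 coding bases compared, so fragments lying within these bases could not be told apart. The last 90 of the bases compared are printed to show this.
Trav11, plus strand, chr14:53519769-53519858: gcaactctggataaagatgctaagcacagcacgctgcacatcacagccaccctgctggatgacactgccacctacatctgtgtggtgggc
Trav11d, plus strand, chr14:52824823-52824912: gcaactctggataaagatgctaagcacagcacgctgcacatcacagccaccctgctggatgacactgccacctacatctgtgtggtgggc

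Trav11n, the annotated pseudogene copy with 78.6% of its windows unique, had 9, 57, 5 and 1 fragments. Traj18 had 7, 25, 0 and 8 fragments, 1.55 ± 1.08% of J fragments. Traj33 had 1, 5, 7 and 0 fragments, 0.735 ± 1.07% of J fragments, and was highest in replicate 3. Since transcripts pass through J segments downstream of the one that was joined, these counts do not give the number of invariant receptors. Zbtb16, the transcription factor that natural killer T cells depend on, had 0, 6, 0 and 0 fragments.

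Of the 14 genes of the recombination list, 3 stayed below 1 TPM in every library. Rag1, a subunit of the recombinase, had 0, 3, 4 and 0 fragments, Rag2, the other subunit, had 0 in all libraries, and Dntt, which adds bases at the joints, averaged 0.433 ± 0.186 TPM. The other 11, most of which act on DNA ends in many cell types, reached 1 TPM in every library. Ptcra, the surrogate alpha chain of developing T cells, averaged 0.223 ± 0.154 TPM. Trdc, the constant region of the delta chain, averaged 0.785 ± 0.286 TPM, and of the 11 delta genes inside the locus 1 reached 1 TPM in every library, namely Trdv1 (3.58 ± 1.47 TPM), and 5 had no fragment.

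The libraries were set side by side by their segment shares. Pearson's r between libraries, over the 128 V segments, was 0.906 to 0.958 across the 6 pairs, and over the 60 J segments it was 0.472 to 0.735. These are descriptions across segments, which share the same libraries, and J rows rest on 302 to 1460 fragments per library against 3894 to 22307 for V rows. Variation beyond the spread of genes of like abundance was tested with edgeR's goodness-of-fit test on the counts of all genes. With edgeR's low-count filter at a minimum count of 10, scaled to library depth, 12712 genes were tested. Of these, 46 (0.362%) were called at an adjusted p of 0.05. Of the 188 segments 56 could be tested (53 V and 3 J), and 0 were called. At an unadjusted p of 0.05, 6 of 56 passed, beside 5.54% of all genes tested. With the gene dispersions of DESeq2 0 segments and 0 genes were called. Each of those dispersions was estimated from the same 4 libraries and takes up much of a gene's own variation, so this 0 says little about the segments. The median deviance of the 56 segments was 2.72, beside 1.98 over all genes tested. This order depended on the setting. The segments tested had 1.09 beside 1.20 over all genes without replicate 3, and 1.83 beside 2.18 with the DESeq2 dispersions. Under the other alternatives the segments had the higher median.

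The 6 were Trav7-1, Trav13-2, Trav14d-3-dv8, Trav4-3, Trav9-2 and Trav6d-5, with adjusted p-values of 0.291, 0.505, 0.532, 0.576, 0.702 and 0.805 by edgeR, and those not among the leading 10 were named after their values were seen. Trav7-1 had 20, 240, 87 and 42 fragments, or 3.35, 9.00, 18.3 and 8.89 TPM. It was lowest in replicate 1 and highest in replicate 3. Trav13-2 had 15, 304, 46 and 45 fragments, lowest for its depth in replicate 1, and Trav4-3 had 78, 488, 62 and 157, highest for its depth in replicate 4. With 1 common dispersion in place of a trend, 12 of the 56 segments were called, among 862 genes in all (6.78%).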

How the data were processed

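Counts of fragments per gene were deposited by the authors as 1 table per library. Fragments whose ends both aligned were counted over GENCODE vM13 exons by featureCounts 1.4.6-p4 at strand setting 2, per the file headers. Those with several alignments were left out, and no fragment was counted to more than 1 gene. The mm10 build is given by the labels, and alignment settings are not given in the sources used here. Gene symbols and transcript sequences were taken from GENCODE vM21, which paired 50376 of the 50600 identifiers with a symbol, and all 188 segments have the same start and end in vM13 and vM21. Each of the 6 pairs of libraries differed by more than sampling noise, with a chi-square of 9.14 to 29.1 for each degree of freedom.

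Shares were taken within V and within J fragments of a library. TPM was computed from counts and exon lengths, and log2 values used a pseudocount of 1 TPM. Variation between libraries was tested with edgeR 4.0.16 (R 4.3.3, TMM scaling, trended dispersion, Benjamini-Hochberg adjustment over all genes). Its low-count filter was set to a minimum count of 10, scaled to library depth. DESeq2 1.42.0 supplied alternative size factors and dispersions. Contrasts within libraries used exact sign-flip tests. Named segments were the 10 V and 10 J of highest mean share, those called variable, those of invariant receptors, and the first and last by position. The members and lists were chosen with earlier results of these data known. Alternatives covered normalization, filters, dispersion, depth, detection floor, scale, pseudocount, members and leaving out each library.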

Additional observations from a re-analysis of the deposited data

Results flagged for a closer look

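In 13 of 83 sets of 4 library values, 1 library lay apart from the other 3 by more of the whole range than Dixon's critical gap for 4 samples. About 1 in 20 independent sets would do so by chance, a figure that does not apply to all 83: several share segments, such as Trav14n-3 and the n block, and in Trav11, Trav23 and Traj61 the other 3 values were 0, so that the gap was the whole range. The depth of replicate 2 was 273136467 fragments, against 47558517 to 60102919. In the same library the number of J segments with at least 3 fragments was 50 against 33 to 35 elsewhere, the highest share of any J segment was 8.08% against 10.6 to 10.7%, and the summed J level was 20.8% of the Trac level against 22.9 to 23.3%. Traj61 was at 1.75 TPM and Trav11 at 0.0737 TPM in replicate 2, and both were at 0 in the other 3.

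Replicate 3 was high in Trav14n-3, at 69.2 TPM against 46.2 to 46.8 TPM. Its share of V fragments in the n block, which holds Trav14n-3, was 15.6% against 12.6 to 12.9%. Traj33 reached 8.69 TPM in replicate 3 against 0 to 1.11 TPM. Replicate 1 was low in the share of the Trav14 family, 18.8% against 22.3 to 22.9%, in the share of the Trav6 family, 7.84% against 9.49 to 9.73%, and in Trav14-3, 26.6 TPM against 32.6 to 33.4 TPM. Trav23 was at 0.411 TPM in replicate 4 and at 0 in the others.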

How the results depend on the processing

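With a floor of 1 fragment 29 J segments were detected and with a floor of 10 fragments 3, against 19 with a floor of 3, and leaving out each library in turn gave 20 to 25. With a common dispersion 12 segments were called variable and under the other 9 alternatives 0. One of these 9, the gene dispersions of DESeq2, called 0 genes of any kind. Of the 18 named segments followed, 0 were called in the main test. They stayed without a call in 170 of 177 alternatives, and the 7 that changed became called under a common dispersion. The effective number of V segments was 30.9 without segments shared with the delta chain. On the TPM scale the effective number of J segments was 19.7 and the leading 10 J segments held 49.6%. The lowest correlation of V shares was 0.947 on a log2 scale, and that of J shares was 0.472 to 0.658 when each library was left out, the highest without replicate 4. The causes were not tested. The V and J position differences and the V to J difference kept their sign under every alternative run, and leaving out each library gave 1.59 to 1.72 for J position, 1.28 to 1.34 for V position and 0.86 to 0.96 for V against J. Other window lengths, the set of V segments with mostly unique windows and the removal of J rows under 50 bases were chosen after seeing the data. Few fragments per J row limit the J shares. No paired comparison between conditions was possible because all libraries belong to 1 group.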

Other observations

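Trdj2, a joining segment of the delta chain, had 0, 0, 0 and 5 fragments in replicates 1 to 4, and Trdv5 had 15, 16, 6 and 0. Traj60, annotated as a pseudogene near the far end of the J cluster, had 17, 0, 10 and 0 fragments, so that the deepest library had none. These 3 were chosen after their values were seen.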
